A study of Mus musculus with 7 samples.

Results

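Carboxylesterases are serine hydrolases, most of them held in the endoplasmic reticulum, that split ester, thioester and amide bonds in drugs, toxins and lipids. The mouse genome carries an expanded family of them in tandem arrays, and several members act on triacylglycerol and cholesteryl esters as well as on drugs. In the kidney they are known mainly as enzymes of the proximal tubule. The genes described here are the 8 whose symbols begin with Ces and a digit among the 12958 symbols of the deposited tables: Ces1d, Ces1e, Ces1f, Ces2c, Ces2e, Ces2g, Ces2h and Ces3b. All members passed the filter on low values, which left out 0 genes of the tables. The family was taken up with the comparison of knockdown and control glomeruli already known, because Ces1f and Ces2c stood among the genes with the smallest p-values in it. The differences between groups given below for the 8 genes are therefore a description, with no test, and they support nothing by themselves.

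Glomeruli, the filtering units of the kidney, were isolated with a magnet and sieves after bead perfusion, and poly-A RNA from them was sequenced for 7 male mice of the strain labelled BALB-C, 1 library per animal. Each mouse was given doxycycline, by diet and drinking water alike, over 6 weeks, starting when it was 8 weeks old, and was 14 weeks old at the end. Knockdown mice (n = 3) carried an siRNA transgene against Shroom3, an actin-binding protein of epithelial junctions, and control mice (n = 4) were littermates without it. The sources used here do not give the promoter that drives the transgene or the cells it acts in. Shroom3 itself did not separate the groups: its log2 values were 10.80, 10.91 and 10.89 in the libraries labelled knockdown and 10.94, 10.85, 11.36 and 11.06 in those labelled control, a log2 difference of -0.19 (SE 0.11; limma, Benjamini-Hochberg adjusted p = 0.417). Knockdown and control below therefore mean the libraries so labelled. The podocyte markers Nphs1 and Podxl had mean log2 values of at least 12.47 in both groups. The proximal tubule receptor Lrp2, named after its values were seen, was at 15.73 in knockdown and 15.94 in control. The deposited values are logarithms, whose base is taken to be 2, with library medians from 9.15 to 9.16, and depth is unknown, since the tables hold no counts. Titles came in 2 styles, G (2 knockdown, 3 control) and CB6 (1 knockdown, 1 control), whose meaning the labels do not state.

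All 8 genes lie on chromosome 8 (GRCm38 coordinates from GENCODE release M21) in clusters about 11.6 Mb apart, and they are protein-coding genes. The Ces1 cluster is on the minus strand, with Ces1d at 93166068 to 93197838, Ces1e at 93201218 to 93229619 and Ces1f at 93256236 to 93279747. The other cluster is on the plus strand, with Ces2c at 104847068 to 104854483, Ces2e at 104926260 to 104934672, Ces2g at 104961718 to 104969537, Ces2h at 105000853 to 105021178 and Ces3b at 105083753 to 105093929. The annotation lists 20 family genes in all, including 1 pseudogene, Ces2d-ps, and the 12 without a value in the tables were not analysed here.

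The coding stretch around the active-site serine shows how alike the members are, which bears on how well reads can be told apart. Each line gives 63 bases from the longest open reading frame of the longest GENCODE coding transcript, 5′ to 3′, with the serine codon and the codon before it in capitals.
Ces1d: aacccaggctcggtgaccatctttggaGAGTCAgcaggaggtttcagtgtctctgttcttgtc
Ces1e: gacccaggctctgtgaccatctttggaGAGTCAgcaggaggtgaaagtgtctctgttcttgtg
Ces1f: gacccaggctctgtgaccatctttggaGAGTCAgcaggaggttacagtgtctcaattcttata
Ces2c: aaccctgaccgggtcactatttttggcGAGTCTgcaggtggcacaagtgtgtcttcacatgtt
Ces2e: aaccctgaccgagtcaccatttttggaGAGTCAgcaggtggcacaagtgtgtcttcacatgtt
Ces2g: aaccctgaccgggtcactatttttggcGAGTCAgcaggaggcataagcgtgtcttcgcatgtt
Ces2h: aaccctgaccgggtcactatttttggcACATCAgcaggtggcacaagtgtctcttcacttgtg
Ces3b: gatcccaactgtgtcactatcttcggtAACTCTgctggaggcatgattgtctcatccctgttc

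Of the 63 bases, 56 in Ces1d and 57 in Ces1e were identical to Ces1f, and 39 to 42 in the Ces2 and Ces3 members. The codon before the serine was the same in 6 members and another one in Ces2h and Ces3b. Over whole reading frames of 558 to 571 codons, coding identity was 78.0% to 80.4% within Ces1 (3 pairs), 78.7% to 85.3% within Ces2 (6 pairs) and 62.1% to 65.1% between subfamilies (19 pairs). Identity is an average, so exact repeats were counted too. Of the stretches of 50 bases in the transcript of Ces1f, 1.6% also occurred in the transcript of another gene. For Ces1d, Ces1e, Ces2e, Ces2g and Ces2h that share was 1.28%, 3.21%, 3.36%, 3.95% and 0.167%. Ces2c and Ces3b stood apart, with 42.2% and 26.1%, most of it shared with the pseudogene Ces2d-ps and with Ces3a. Reads of Ces2c and Ces3b could thus be split with a near copy, and their values are uncertain to that extent, while most of the Ces1f transcript is unique at this length. The sources used here give neither the read length nor the handling of reads with several matches, and all sequences shown are those of the reference genome, not of the mice.

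The members of the Ces1 cluster were lower in knockdown than in control glomeruli, Ces1f by the most. Ces1f, a triacylglycerol hydrolase of the endoplasmic reticulum, had log2 values of 10.73, 10.87, 10.80 and 11.28 in the 4 control libraries and of 8.25, 7.46 and 7.94 in the 3 knockdown libraries. The lowest control library lay 2.47 above the highest knockdown library. Means were 10.92 ± 0.25 (SD, n = 4) and 7.88 ± 0.40 (SD, n = 3), a log2 difference of -3.03 (SE 0.19), or 8.19-fold lower.

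Ces1d, known as triacylglycerol hydrolase for its part in mobilising stored fat in liver and adipose tissue, had values of 10.04, 10.21, 9.97 and 10.14 in control and of 9.28, 8.62 and 9.10 in knockdown libraries. The groups did not overlap, and the control libraries were the tighter ones (SD 0.11, n = 4, against 0.34, n = 3). The mean was 10.09 in control and 9.0 in knockdown, a log2 difference of -1.09 (SE 0.15), or 2.13-fold lower.

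Ces1e encodes egasyn, which anchors beta-glucuronidase in the endoplasmic reticulum. Its values were 8.48, 8.63, 8.33 and 9.62 in control and 7.60, 7.35 and 6.50 in knockdown libraries. The groups did not overlap, yet the CB6 libraries held both ends, the highest control and the lowest knockdown value. The log2 difference was -1.61 (SE 0.35) over all libraries, -1.0 within the libraries titled G and -3.12 between the CB6 pair. The same values were -2.94 and -3.35 for Ces1f, and -1.12 and -1.04 for Ces1d. Whether the difference itself varies with title style was not tested.

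**Figure D1:**
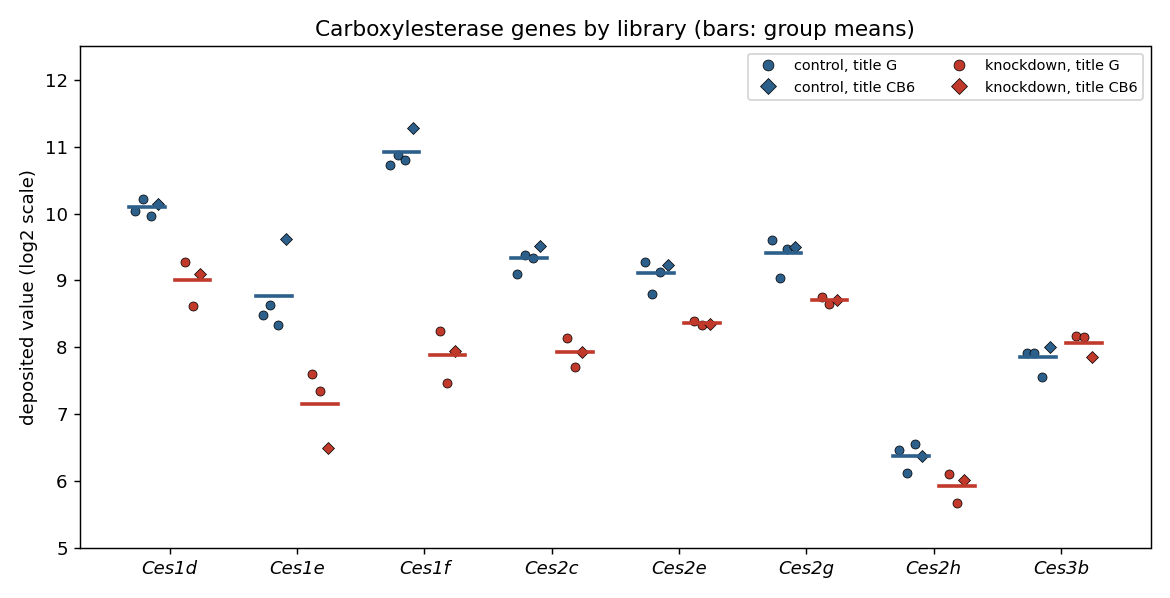
Deposited log2 value (vertical axis) of the 8 carboxylesterase genes in each library, control in blue and knockdown in red; circles are libraries titled G, diamonds those titled CB6, and bars are group means. Control points of Ces1f sit between 10.73 and 11.28 and knockdown points between 7.46 and 8.25, while the groups of Ces3b overlap.

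The Ces2 members had log2 differences from -1.41 to -0.46, with Ces2c beyond Ces1d and the others nearer to 0. Ces2c, also known as an acylcarnitine hydrolase, had values of 9.10, 9.38, 9.33 and 9.51 in control and of 8.14, 7.70 and 7.93 in knockdown libraries. Means were 9.33 ± 0.17 (SD, n = 4) and 7.92 ± 0.22 (SD, n = 3), a log2 difference of -1.41 (SE 0.13), or 2.65-fold lower, with no overlap.

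Ces2e and Ces2g, enzymes of the same subfamily, were close to each other in every library. Ces2e had 9.28, 8.79, 9.12 and 9.23 in control and 8.40, 8.34 and 8.35 in knockdown libraries. Ces2g had 9.61, 9.03, 9.47 and 9.50 in control and 8.75, 8.65 and 8.70 in knockdown libraries. In both genes control replicate 2 was the lowest control, and the knockdown libraries lay close together (SD 0.03 and 0.05, n = 3). Their log2 differences were -0.74 (SE 0.12) and -0.71 (SE 0.13). After centring on the control mean, their values differed by a root mean square of only 0.0433 over the 7 libraries, the smallest distance among the member pairs. Such a distance was not particular to the pair, since Magi2, a gene outside the family, was as near to Ces2e (0.0422). Of the 2650 stretches of 50 bases in the transcript of Ces2e, 36 also occur in Ces2g.

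Ces2h and Ces3b differed least. Ces2h had 6.47, 6.12, 6.56 and 6.37 in control and 6.10, 5.67 and 6.01 in knockdown libraries, and the groups were only 0.02 apart. Its log2 difference was -0.46 (SE 0.15), and its level was the lowest of the family. Ces3b had 7.92, 7.92, 7.55 and 8.01 in control and 8.17, 8.15 and 7.85 in knockdown libraries. The groups of Ces3b overlapped, and it was the single member with a positive log2 difference, 0.21 (SE 0.14), which was 0.36 within the libraries titled G and -0.16 in the CB6 pair.

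In 7 of the 8 genes, all but Ces3b, every knockdown library lay below every control library; over all genes 7.55% did. With limma and Benjamini-Hochberg adjustment over all 12958 genes, 6 of the 8 (Ces1d, Ces1e, Ces1f, Ces2c, Ces2e and Ces2g) were lower at an adjusted p under 0.05, against 2.02% of all genes that were lower, 0.996% that were higher and 3.02% that passed in either direction. Nothing is read from these counts, since the family was chosen from this contrast. The median log2 difference was -0.91 over the 8 genes and 0.02 over all genes. With title style as a covariate 4 members passed (Ces1d, Ces1f, Ces2c and Ces2e), against 1.47% of all genes, and in the libraries titled G alone 1 did, Ces1f, against 0.309%. Leaving out any 1 of the 3 knockdown libraries, or control replicate 4, left 3 members past the threshold (Ces1d, Ces1f and Ces2c), against 1.03% to 1.57% of all genes. Ces1e passed in only 3 of its 14 alternatives and in none that left out a library. Those 3 were quantile normalization, median scaling and the fit without the filter, which repeats the main fit. Across genes, the 2 CB6 libraries deviated from the means of their groups in opposite directions (Pearson correlation -0.958, a description over all genes). The coefficient of title style had an SD of only 0.0283 over all genes. A shift shared by both groups was thus nearly absent over the genes as a whole. Several members held larger coefficients, 0.29 for Ces1f, 0.15 for Ces1e, 0.13 for Ces2c and 0.10 for Ces1d. The others were 0.08 for Ces2e, 0.07 for Ces2g, 0.05 for Ces2h and -0.03 for Ces3b. In all 8 the sign was opposite to that of the log2 difference. The fit with that covariate hardly moved a difference (-3.03 to -3.06 for Ces1f) and is a weak check on title style. Whether values were adjusted for title style before deposit is not stated, and the p-values take no account of such a step.

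**Figure D2:**
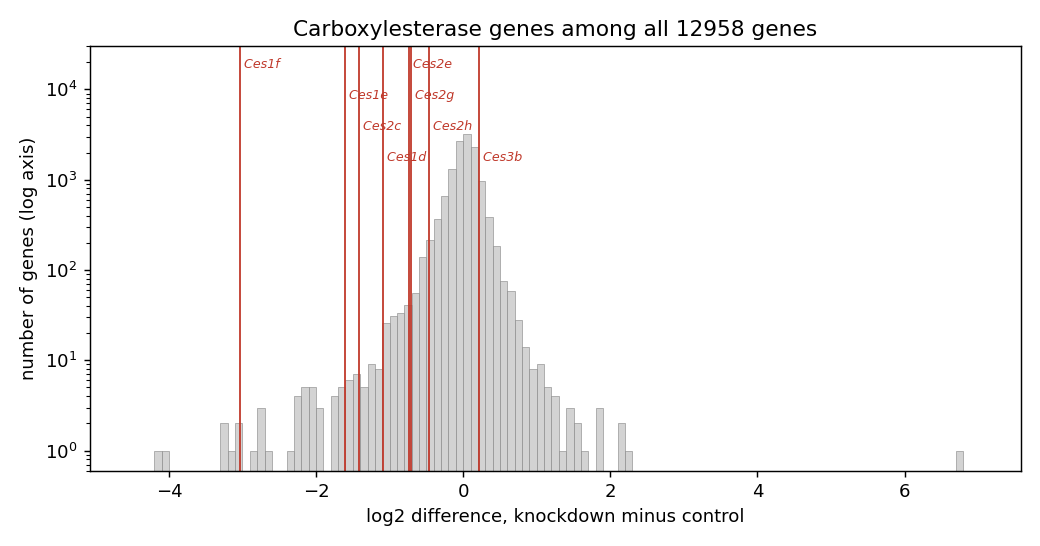
Histogram of the log2 difference between knockdown and control means for all 12958 genes (vertical axis on a log scale), with the 8 carboxylesterase genes as red lines. The lines run from -3.03 for Ces1f to 0.21 for Ces3b, and the bulk of genes is centred near 0.02.

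The make-up of the family differed between the groups too. Levels of different genes were compared after dividing by the length of the longest coding transcript, on a log2 scale per kilobase. In control glomeruli Ces1f was highest at 9.97 ± 0.25 (SD, n = 4), then Ces1d at 9.09 ± 0.11 and Ces2c at 8.35 ± 0.17, and the ranges of these 3 genes over the 4 libraries did not overlap. Ces2g at 7.89 ± 0.25, Ces1e at 7.71 ± 0.59 and Ces2e at 7.67 ± 0.22 overlapped in range, and the highest library of Ces1e, at 8.57, lay above that of Ces2c, at 8.53. Ces3b at 6.58 ± 0.20 and Ces2h at 5.09 ± 0.19 were lowest.

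In knockdown glomeruli Ces1d led this per-kilobase order at 8.00 ± 0.34 (SD, n = 3). Ces2g at 7.18 ± 0.05, Ces2c at 6.94 ± 0.22, Ces1f at 6.94 ± 0.40, Ces2e at 6.93 ± 0.03 and Ces3b at 6.79 ± 0.18 followed, and the range of Ces1f over its 3 libraries, 6.52 to 7.31, contained those of the other 4. Ces1e at 6.10 ± 0.58 and Ces2h at 4.64 ± 0.23 were lowest. Whether the deposited values were already divided by length is not given in the sources used here. Without the division Ces1f and Ces1d were again first and second in control, Ces1d was again first in knockdown, and Ces2g came before Ces2c in control. In knockdown Ces2e, Ces3b, Ces2c and Ces1f then took ranks 3, 4, 5 and 6, in place of 5, 6, 3 and 4. The knockdown order below Ces2g thus depends on the division.

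As a share of the per-kilobase sum over the family, Ces1f held 35.2% to 40.1% in the control libraries and 10.5% to 14% in the knockdown libraries. Ces3b, whose own level was at 7.85 and 8.06, held 3.15% to 4.04% and 10% to 13.5%. The share of Ces2c stayed between 11.2% and 13.2% in all 7 libraries. Summing the antilogarithms of the values within a subfamily is indifferent to reads moved between its measured members. Such a sum does not cover reads shared with genes that have no value here, such as Ces2d-ps for Ces2c. The Ces1 sum then had a log2 difference of -1.95, from 11.76 ± 0.24 (SD, n = 4) to 9.81 ± 0.31 (SD, n = 3), and the Ces2 sum one of -0.90, from 10.94 ± 0.14 to 10.03 ± 0.09.

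**Figure D3:**
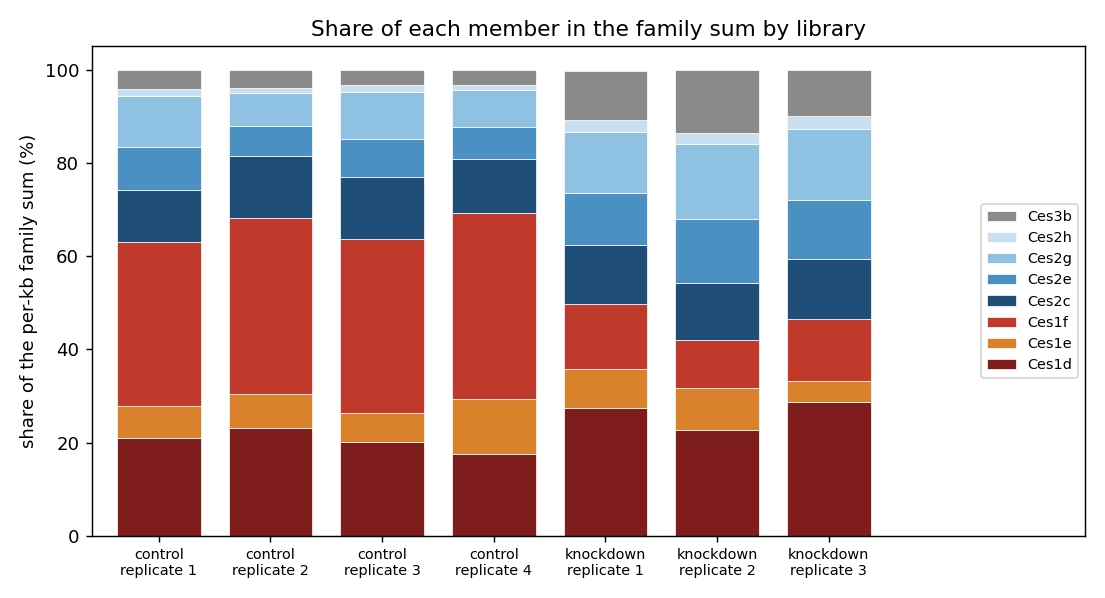
Share of each gene in the sum of the 8 members per library, in percent of antilogarithms per kilobase of transcript; bars are single libraries, control at left and knockdown at right. Ces1f takes 35.2% to 40.1% of the control bars and 10.5% to 14% of the knockdown bars.

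Genes beside the clusters were looked at next, since the family lies in tandem arrays. Of 26 measured genes within 500 kb of a member, 0 passed limma with Benjamini-Hochberg adjustment in either direction, against 3.02% of all genes. A count of 0 in 26 is near that share. At an unadjusted p under 0.05 (limma) there were 2, against 18.4% of all genes. These were Cmtm3 (-0.45) and Nae1 (0.36), named after their values were seen. The median log2 difference of the 26 was -0.01, with a range from -0.53 to 0.36, beside 0.02 over all genes. Only 1 of them, Mmp2, a matrix metalloproteinase, lies by the Ces1 cluster, and the other 25 lie by the Ces2 and Ces3 cluster. The neighbours with the highest levels, Cdh16, a cadherin of kidney tubules, and Dync1li2, a dynein chain, differed by 0.01 and 0.02. Neither sign was stable to leaving out single libraries, such as control replicate 4 for Cdh16 (-0.03) and control replicate 2 for Dync1li2 (-0.04).

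**Figure D4:**
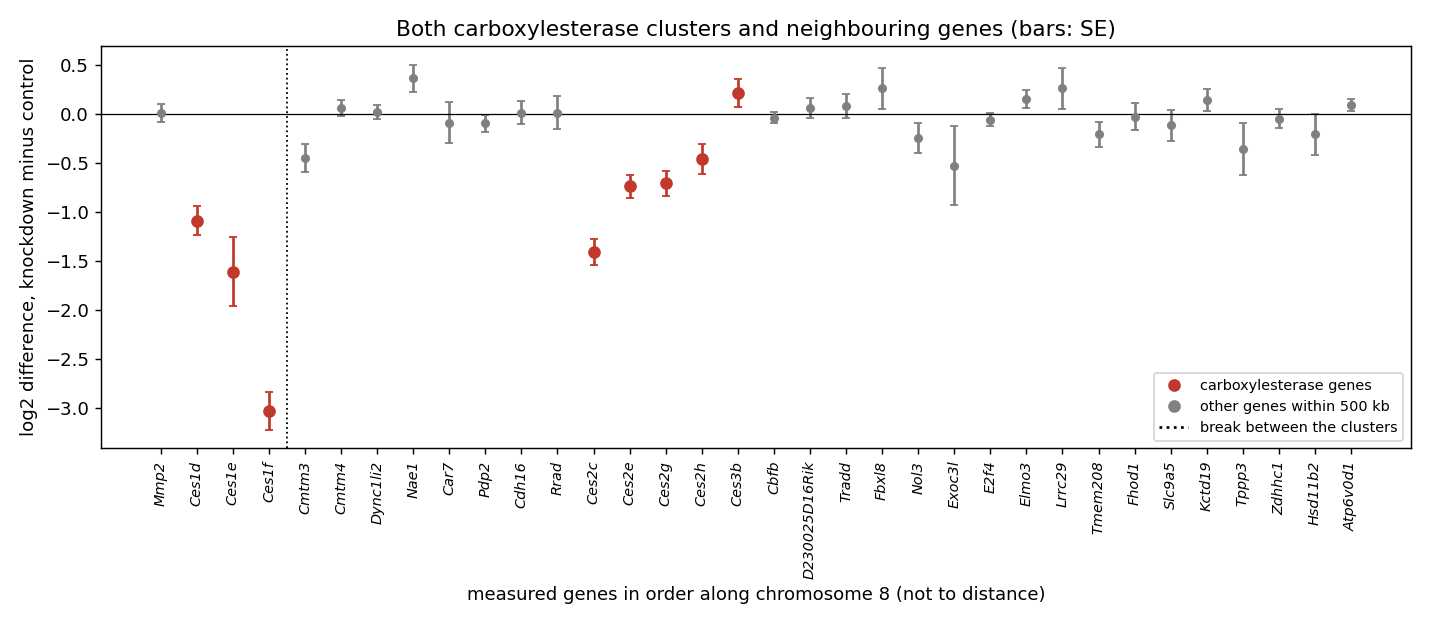
Log2 difference between knockdown and control (points, with SE as bars) for the 8 carboxylesterase genes in red and the 26 other measured genes within 500 kb in grey, in their order along chromosome 8. The red points reach -3.03, while the grey points lie between -0.53 and 0.36.

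Promoter sequences from RefSeq (GRCm38.p6; 250 bases before to 50 after the start) matched 6 of the 8 members, Ces1d and Ces1f not among them. The promoters of Ces2c and Ces3b are shown because these members of the plus-strand cluster lay farthest apart in their difference, at -1.41 and 0.21. Capitals mark matches on either strand to the motifs below.
Ces2c, plus strand, chr8:104846818-104847117: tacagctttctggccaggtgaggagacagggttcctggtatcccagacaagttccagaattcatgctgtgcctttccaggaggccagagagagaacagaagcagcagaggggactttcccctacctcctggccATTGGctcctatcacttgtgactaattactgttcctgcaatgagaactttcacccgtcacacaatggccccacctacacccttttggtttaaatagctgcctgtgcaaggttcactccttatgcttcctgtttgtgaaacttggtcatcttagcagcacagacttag
Ces3b, plus strand, chr8:105083505-105083804: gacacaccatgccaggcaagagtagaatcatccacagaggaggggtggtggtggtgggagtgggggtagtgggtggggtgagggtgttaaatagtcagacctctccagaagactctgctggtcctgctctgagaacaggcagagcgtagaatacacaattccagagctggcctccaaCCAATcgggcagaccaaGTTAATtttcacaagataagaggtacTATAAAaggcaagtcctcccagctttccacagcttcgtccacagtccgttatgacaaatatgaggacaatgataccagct

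Ces3b held a TATA box (TATAAA) that begins 30 bases before the start and an HNF1 half-site (GTTAAT) that begins 56 bases before it, motifs found in 13.6% and 7.1% of all 32851 promoters of this length and in none of the other 5 members searched. A CCAAT box (CCAAT) stood in Ces2c, Ces2g, Ces2h and Ces3b, and in 37.4% of all promoters. The nuclear receptor half-site AGGTCA stood in Ces2h alone of the 6, against 16.3% of all promoters. The HNF4 core (CAAAGTCCA) was in none of the 6 and in 0.475% of all promoters. A direct repeat of the receptor half-site with 1 base between, which contains that half-site, was in none of the 6 and in 0.0396% of all. Both strands were searched, and the other motifs do not contain each other. A match describes the letters in this window only.

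Transcription factors of drug and lipid metabolism, among them receptors and hepatocyte nuclear factors known to act on such genes, were listed next. Of 12 listed, 9 were measured, and 0 passed limma with Benjamini-Hochberg adjustment, against 3.02% of all genes. At an unadjusted p under 0.05 there were 2, against 18.4% of all genes, so both counts are near the background. The list had a median log2 difference of -0.07. Hnf4a, a factor of liver and proximal tubule, averaged 13.16 in the 3 knockdown libraries (SD 0.09) against 13.23 in the 4 controls (SD 0.07), and the glucocorticoid receptor Nr3c1 differed by 0.08. Those under 0.05 before adjustment, named after their values were seen, were Nfe2l2, the oxidative stress factor (0.18), and Nr1h4, the bile acid receptor. Nr1h4 was at 10, 9.88 and 9.83 in knockdown and at 10.01, 10.47, 10.38 and 10.45 in control, a log2 difference of -0.42 (limma, Benjamini-Hochberg adjusted p = 0.0908).

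Of 38 other esterases, lipases and thioesterases listed, 31 were measured. Among these 1 fell, 0 rose and 30 did not pass, a share near the 3.02% of all genes, with a median log2 difference of -0.04 beside -0.91 for the carboxylesterases, whose choice fixed that value. Afmid, the kynurenine formamidase, was at 9.82, 9.63 and 9.86 in knockdown and at 10.37, 10.62, 10.27 and 10.41 in control, and fell by a mean log2 difference of -0.65 (limma, Benjamini-Hochberg adjusted p = 0.0097). Without knockdown replicate 2 its adjusted p was 0.0519, and in the libraries titled G alone 0.127 (limma). Aadac, the arylacetamide deacetylase and a drug esterase of the same compartment, named after its values were seen, differed by 0.44 (limma, Benjamini-Hochberg adjusted p = 0.143).

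Markers of the proximal tubule also differed between these groups. Of 28 markers, all measured, 10 fell and 1 rose (limma, Benjamini-Hochberg adjusted p under 0.05), and their median log2 difference was -0.32. Of all genes 2.02% fell and 0.996% rose. The marker lists were drawn up with earlier results of these data known, so their counts are a description only. Without knockdown replicate 2, 7 markers passed, against 1.03% of all genes. In the libraries titled G alone 3 passed, Cyp2e1, Slc22a12 and Pck1, against 0.309%. The summed level of the 28 ran from 18.53 to 18.87 in knockdown and from 18.72 to 19.09 in control libraries, so the groups overlapped. Markers that fell included Cyp2e1, a cytochrome P450 (-3.26), the urate transporter Slc22a12 (-2.26), Kap, the kidney androgen-regulated protein (-2.19), and Cyp4b1 (-1.06). Pck1, the gluconeogenic enzyme, rose by 1.49, while the water channel Aqp1 differed by -0.002 and the lactate transporter Slc5a12 by 0.07, both named after their values were seen and neither past the threshold.

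The part of tubule content in the carboxylesterase differences was not tested, and in these bulk samples fewer cells of a type and less RNA per cell cannot be told apart. Podocyte markers, all 15 measured, had 2 that fell, Magi2 (-0.70) and Col4a3 (-0.63), against 2.02% of all genes, and a median of -0.21. Col4a3 lost that call in 9 of 15 alternatives, among them title style (limma, Benjamini-Hochberg adjusted p = 0.0787) and each fit that left out a library other than control replicate 2. Magi2 lost it in the libraries titled G alone (limma, adjusted p = 0.152). Of 12 hepatocyte markers 1 was measured, Ttr, which fell (-2.03; limma, Benjamini-Hochberg adjusted p = 0.0499) but lost that call in 12 of 14 alternatives. Of 7 adipocyte markers 1 was measured, Fabp4 (-0.16; adjusted p = 0.42 by limma with Benjamini-Hochberg adjustment). The other 11 and 6 had no value in the tables and were not analysed here.

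The genes closest in pattern to each member were found by the root mean square difference of control-centred log2 values over the 7 libraries, a description that the group difference dominates. For Ces1f these were Cyp2e1 (0.183), Angptl7, a secreted angiopoietin-like protein (0.235), the glucuronosyltransferase Ugt2b37 (0.288), the muscarinic receptor Chrm2 (0.315) and the chemokine Ccl28 (0.338). Their log2 differences lay between -3.26 and -2.62, beside -3.03 for Ces1f. Like Ces1f, all 5 had their highest value in control replicate 4 and their lowest in knockdown replicate 2, which their choice over these same libraries favours.

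For the other members the nearest gene was Eci3, a peroxisomal isomerase of fat oxidation, for Ces1d (0.101), Tnfrsf11b, osteoprotegerin, for Ces1e (0.128), and Serpinf2, the antiplasmin gene, for Ces2c (0.12). Magi2, the podocyte scaffold, was nearest to Ces2e (0.0422), Ces2e to Ces2g (0.0433), the protocadherin Pcdh19 to Ces2h (0.0828) and Wdr12, of ribosome assembly, to Ces3b (0.0496). Tnfrsf11b repeated the spread of Ces1e in the CB6 pair, at 8.02 in control and 5.08 in knockdown, against 6.72 to 7.28 and 5.83 to 6.08 in the libraries titled G. This gene was picked for its nearness to Ces1e over these same libraries.

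**Figure D5:**
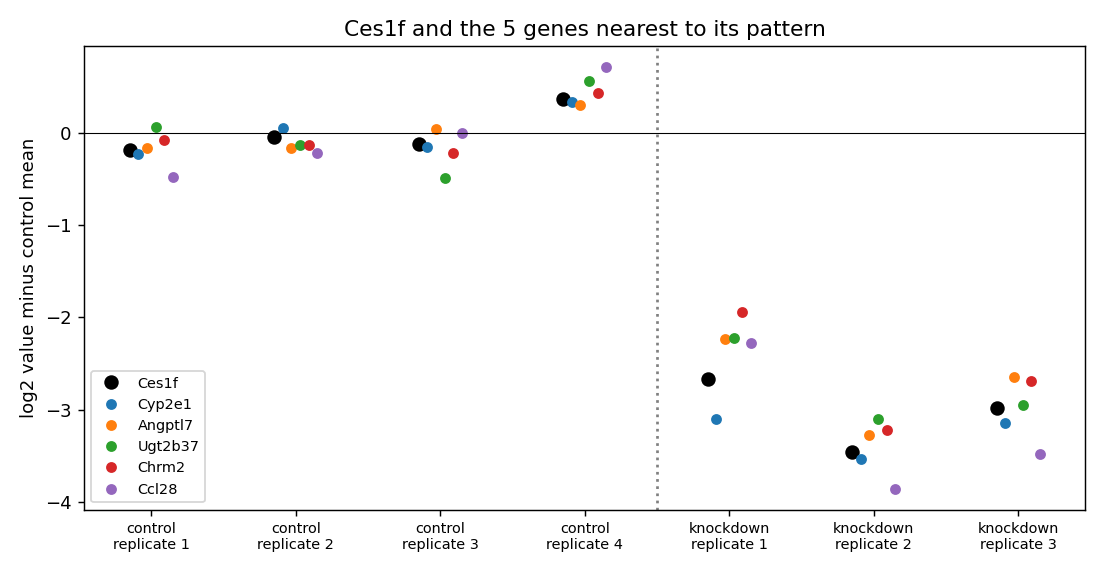
Log2 value minus the control mean in each library for Ces1f (black) and the 5 genes with the smallest root mean square distance to it (colours). All 6 genes lie below all of their control values in the 3 knockdown libraries.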

How the data were processed

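The authors deposited 1 table per library with gene symbols and log2 expression values; the logarithm's base is read from the values and is not stated. RNA was captured by poly-A, per the labels' protocols, and BWA and mm10 are named in the submitters' processing notes. How reads were counted, whether strand was used and how values were normalized is not stated in those sources. The 7 library medians lay between 9.15 and 9.16.

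Knockdown (n = 3) was compared with control (n = 4) in limma 3.58.1 (R 4.3.3) with an intensity trend, on all 12958 symbols. P-values were adjusted by Benjamini-Hochberg over all of them, and genes under 0.05 were called. Requiring 3 libraries over the lowest value of the tables left out 0 genes. The fit was tested on simulated data with independent noise and no title styles, so that test does not cover title style. The members and lists were chosen with earlier results of these data known. Named are all members, the genes nearest in pattern (5 for the member with the largest difference, 1 for each other), Shroom3, and of each list up to 4 genes per direction past the threshold by p, or the 2 with the highest mean. Nphs1, Podxl and Mmp2 were named outside this rule. No other measured gene was named except where stated. The design text counts animals, so each library is 1 mouse. The alternatives were other normalizations, a pseudocount of 16, filters, no trend, title style and left-out libraries.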

Additional observations from a re-analysis of the deposited data

Results flagged for a closer look

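In 32 gene-by-gene checks of the 4 control libraries for a value far from the others (Dixon's ratio of the gap to the range), which chance passes about 1 time in 20, none of the 8 carboxylesterase genes stood out. Kap had a ratio of 1, with 3 control libraries at 15.98 and control replicate 4 at 16.56. Ttr had a ratio of 0.83, with control replicate 4 at 9.92 and the others at 8.6 or lower. Hnf4a had a ratio of 0.909, with control replicate 1 at 13.11 and the others from 13.25 to 13.27.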

How the results depend on the processing

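Each member's log2 difference kept its sign in the alternatives that tested it (15 for Ces1d and Ces1f, 14 for the others), from -3.22 to -2.82 for Ces1f and from 0.11 to 0.36 for Ces3b. Ces1e moved most, to -1.0 in the libraries titled G. The number of members past the threshold was 6, against 3.02% of all genes. Among the genes over the median level, where only 2 members were tested, it was 2, against 4.77% of the genes tested. It was 5 with a pseudocount of 16 (2.99% of all genes) and 5 without the intensity trend (2.42%), both losing Ces1e. It was 4 with title style (1.47%) and 1 in the libraries titled G (0.309%). With 1 library left out it was 3 to 5 (1.03% to 3.7% of all genes), and 3 without any 1 knockdown replicate or without control replicate 4. Ces1f passed in each of the 15 alternatives. The alternative without the filter repeats the main fit, because the filter left out 0 genes, and median scaling had little to change, with library medians from 9.15 to 9.16. The count over all genes, 391, was 191 with title style, 40 in the libraries titled G, 846 and 124 at adjusted p of 0.1 and 0.01, and 134 to 480 with 1 library left out (134 without knockdown replicate 2). Of other ester hydrolases 0 passed in the libraries titled G, and 0 to 2 with 1 library left out; of the transcription factors 0 to 1, and of the neighbours 0. Cdh16, at 0.01, turned to -0.10 in the libraries titled G and ran from -0.07 to 0.09 with 1 library left out (below 0 in 3 of these 7 fits: without control replicate 1, without control replicate 4 and without knockdown replicate 3). Dync1li2, at 0.02, ran from -0.04 to 0.05 (below 0 without control replicate 2). The cause was not tested. Depth is unknown. No paired analysis was possible because the labels give no replicate numbers: those used here follow accession order, name a library and tie no animals together.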
